A study of Mus musculus with 27 samples.

Results

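Expression of 10 immediate early genes, Fos, Fosb, Jun, Junb, Egr1, Atf3, Ier2, Dusp1, Zfp36 and Nr4a1, was examined in the colonic epithelium of 27 male C57BL/6 mice. The genes were chosen by name, through the Ensembl identifier of each symbol, and all 10 were among the 46078 gene rows of the count tables and among the 16496 genes with enough counts to be tested. The mice fell into 9 groups of 3, which were gavaged with sesame oil vehicle or with TCDD, 7 times at intervals of 4 days over 28 days, from 28 to 56 days of age. The doses of TCDD were 30, 10, 3, 1, 0.3, 0.1, 0.03 and 0.01 µg/kg. TCDD, a dioxin, is a persistent ligand of the aryl hydrocarbon receptor (AhR). No transgene or deletion was named for any group, so vehicle and treated mice shared the same genotype. RNA came from scrapings of the epithelium, a mixture of cells, and a fall in a transcript through fewer cells of a type cannot be told apart from less RNA per cell. Each mouse has its own number in the labels, and those numbers are used here.

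Immediate early genes are transcribed within minutes of a stimulus, without new protein synthesis, and their transcripts are short-lived. Growth factors, cytokines, mechanical stretch and injury switch them on through MAP kinases, which act on the serum response factor with its ternary complex partners and on CREB and ATF proteins. In the intestine they respond to epidermal growth factor receptor signalling and to wounding, and they are also known to rise while tissue is dissected. Fos, Fosb, Jun and Junb encode subunits of the transcription factor AP-1, Egr1 a zinc finger factor, Atf3 a stress-induced bZIP factor and Nr4a1 an orphan nuclear receptor. Dusp1 encodes a phosphatase that inactivates MAP kinases, Zfp36 (tristetraprolin) a protein that promotes decay of AU-rich transcripts, and Ier2 a small nuclear protein. The question examined was how far their level followed the dose, and how far it differed between mice given the same dose.

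Counts on genes totalled 9305441 to 14371035 per mouse (median 11651026), and the count of a member in a mouse ran from 18 for Fosb to 2811 for Jun. Index barcodes read from the file names recurred, and a mouse whose index had appeared earlier in sample order was placed in a second index set. No label names these sets or says what they stand for. By this rule the 15 mice from vehicle to 0.3 µg/kg and mouse 41 at 1 µg/kg were in the first set. Mice 43 and 44 and all mice from 3 to 30 µg/kg were in the second. A comparison of 3 to 30 µg/kg with vehicle is thus also one of the index sets, which only the 1 µg/kg group links. The place of mouse 41 rests on sample order alone, and in fits by dose group so does a term for the index set. Mice of the same group always differed by more than sampling noise, with a chi-square of 5.32 to 24.3 per degree of freedom in the 27 pairs. The tissue label was checked against its markers. The 11 epithelial markers summed to 40363 to 62806 CPM (counts per 1000000 after TMM scaling) per mouse and none was at 0, against 198 to 1019 CPM for 13 genes of muscle and stroma. Most of the epithelial sum was Muc2, with a mean of 37751 CPM. All 5 AhR targets listed were called higher at 30 µg/kg. The dose also moved with clock genes, of which 10 of 14 were called at 1 µg/kg and 13 of 14 at 3, 10 and 30 µg/kg. Muscle and stroma summed to 272 to 281 CPM in the vehicle group and to 597, 283 and 1019 CPM in mice 65, 66 and 67 at 30 µg/kg, and 1 of its 13 genes was called there. The part of these differences in the values below was not tested.

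Jun was the most abundant member. Per kb of exonic length, the mean of the 27 mice was 57.01 CPM for Jun, 44.5 for Junb, 42.1 for Fos, 26.3 for Zfp36, 23.4 for Ier2, 13.9 for Atf3, 8.24 for Dusp1, 6.99 for Egr1, 1.81 for Nr4a1 and 0.952 for Fosb. Neighbours in this order overlapped in range over the mice, except that Egr1 lay above Nr4a1 in 27 of 27 mice. Junb exceeded Fos in 16 of 27 mice and Dusp1 exceeded Egr1 in 18 of 27, so those pairs were not separated by more than the spread between mice.

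Among the AP-1 subunits, Fos (chr12:85473890-85477273 on GRCm38, plus strand) had levels of 184, 90.9 and 74.1 CPM in vehicle mice 2, 3 and 4. At 0.01 µg/kg it was 123, 45.6 and 94.4 CPM in mice 9, 11 and 14, and at 1 µg/kg 135, 114 and 145 CPM. At 30 µg/kg the mice lay at 93.2, 91.9 and 100 CPM, within the range of the vehicle group. The highest of all 27 values of Fos was thus in a vehicle mouse and the lowest in a mouse at the lowest dose. The log2 fold change at 30 µg/kg was -0.29 (SE 0.33, edgeR adjusted p = 0.612).

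Fosb (chr7:19302696-19310051, minus strand) was the least abundant member and the one that differed most between mice. It was 6.69, 2.85 and 3.83 CPM in the vehicle mice and 13.3, 1.83 and 5.32 CPM in mice 9, 11 and 14 at 0.01 µg/kg, a 7.27-fold range within 1 dose. At 10 µg/kg mouse 57 had 1.54 CPM, mouse 58 9.07 CPM and mouse 59 6.79 CPM. By contrast, the mice at 0.03 µg/kg had 4.88, 4.99 and 4.91 CPM and those at 30 µg/kg 6.26, 6.86 and 5.86 CPM. Groups as tight as these and groups as wide as the first lay at both ends of the dose range, and the group means ran from 4.46 CPM in the vehicle group to 7.40 CPM at 0.1 µg/kg.

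Jun (chr4:95049034-95052222, minus strand), the usual partner of FOS in AP-1, was 271, 199 and 181 CPM in the vehicle mice. At 3 µg/kg it was 122, 141 and 167 CPM, below all vehicle mice, with a log2 fold change of -0.60 (SE 0.19, adjusted p = 0.112). At 10 µg/kg (196, 204 and 158 CPM) and 30 µg/kg (170, 207 and 186 CPM) the mice again overlapped with the vehicle group. The antisense gene Junos overlaps Jun and had at most 51 counts in a mouse.

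Junb (chr8:84974484-84978718, minus strand), which also pairs with FOS proteins, was 123, 115 and 78.6 CPM in the vehicle mice. It was highest at 1 µg/kg, where mice 41, 43 and 44 had 156, 108 and 157 CPM, and lowest at 0.03 µg/kg, with 92.6, 85.5 and 65.01 CPM. Mice 41 and 44, at the top of the 27, were placed in different index sets by the rule above. At 3, 10 and 30 µg/kg the ranges were 102 to 105, 106 to 129 and 93.6 to 107 CPM. Junb overlaps Prdx2 on the other strand, which had up to 1045 counts, and the use of strand in the counting is not stated in the sources used here.

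Among the other transcription factors, Egr1 (chr18:34859823-34864984, plus strand) was 43.1, 53.9 and 20.6 CPM in the vehicle mice. At 0.1 µg/kg mice 25, 27 and 28 had 66.9, 14.1 and 49.1 CPM, so both the lowest value of the 27 and the second-highest came from the same dose. At 3 µg/kg it was 23.3, 22.4 and 22.2 CPM and at 30 µg/kg 19.7, 22.2 and 23.6 CPM. The 30 µg/kg mice lay around the lowest vehicle mouse (log2 fold change -0.84, SE 0.39, adjusted p = 0.161), as did the mice at 0.3 µg/kg with 19.7, 24.5 and 14.3 CPM (log2 fold change -1.01, SE 0.39, adjusted p = 0.937). Between them in the dose series, the mice at 1 µg/kg had 45.1, 40.9 and 67.5 CPM.

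Atf3 (chr1:191170296-191218039, minus strand) was 43.98, 22.7 and 21.1 CPM in the vehicle mice and 57.6, 14.2 and 25.1 CPM at 0.01 µg/kg, a 4.06-fold range. At 0.1 µg/kg it was 26.6, 52.6 and 43.1 CPM, and at 30 µg/kg 26.7, 30.8 and 22.8 CPM. In both the vehicle group and the 0.01 µg/kg group, the mouse with the most Atf3 was also the mouse with the most Fos and Fosb.

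Nr4a1 (chr15:101254269-101274795, plus strand) was low, at 6.59, 6.11 and 5.79 CPM in the vehicle mice and 5.11, 3.43 and 6.47 CPM at 30 µg/kg (log2 fold change -0.30, SE 0.23, adjusted p = 0.422). Unlike the other members, in the 0.01 µg/kg group it was lowest in mouse 9, with 6.26 CPM, and higher in mice 11 and 14, with 8.45 and 8.36 CPM.

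Among the members that limit signalling or transcript life, Dusp1 (chr17:26505590-26562128, minus strand) was 36.3, 24.9 and 25.6 CPM in the vehicle mice. In the 0.01 µg/kg group mouse 9 had 50.6 CPM and mouse 11 14.6 CPM, which were the highest and the lowest of all 27. At 30 µg/kg it was 26.4, 34.5 and 26.5 CPM, with a log2 fold change of 0.0085 (SE 0.30, adjusted p = 0.99). The annotated Dusp1 locus overlaps Ergic1 on the other strand, which had up to 1720 counts.

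Zfp36 (chr7:28376784-28380253, minus strand) differed little between mice of a group. It was 99.4, 101 and 92.1 CPM in the vehicle mice and lay below all of them at 0.03 µg/kg (80.4, 79.7 and 75.1 CPM), at 0.1 µg/kg (69.5, 81.5 and 80.3 CPM), at 0.3 µg/kg (85.0, 89.1 and 88.9 CPM) and at 3 µg/kg (86.0, 87.0 and 89.3 CPM). At 1 µg/kg it was 109, 95.5 and 135 CPM and at 30 µg/kg 93.4, 91.5 and 97.2 CPM, both overlapping the vehicle group. The 4 comparisons share the vehicle mice, and the lower levels did not continue to the highest doses.

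Ier2 (chr8:84661331-84662852, minus strand) had the smallest spread. It was 39.4, 37.3 and 34.3 CPM in the vehicle mice, above all of them at 1 µg/kg (46.5, 44.2 and 40.9 CPM) and below all of them at 30 µg/kg (32.8, 29.9 and 30.7 CPM). The log2 fold changes were 0.25 (SE 0.11, adjusted p = 0.429) at 1 µg/kg and -0.25 (SE 0.11, adjusted p = 0.135) at 30 µg/kg. In the 1 µg/kg group, mouse 41, placed in the first index set, had 46.5 CPM, and mice 43 and 44 of the second had 44.2 and 40.9 CPM.

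**Figure D1:**
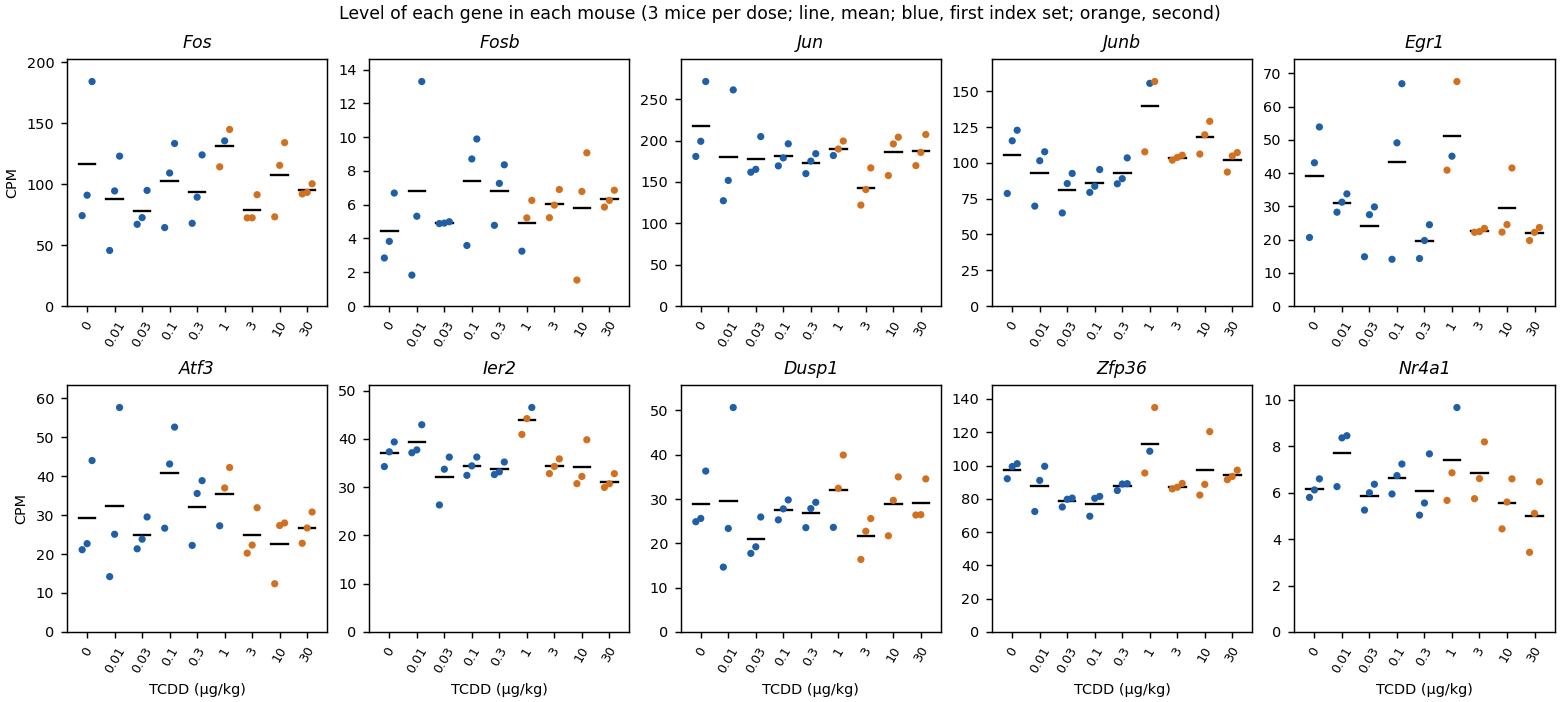
Level of each of the 10 genes in CPM (linear axes from 0) against the dose of TCDD, with 1 point per mouse, the mean of 3 mice as a line, and colour for the index set. The points of Fos, Fosb, Atf3, Egr1 and Dusp1 are far apart at some doses and close together at others, and Ier2 and Junb have their highest mean at 1 µg/kg.

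In the dose comparisons, no member was called different from vehicle at any of the 8 doses. A call needed an adjusted p under 0.05 over the 16496 genes and a fold change of at least 1.5, in edgeR's quasi-likelihood test fitted to all 9 groups. Of all genes tested, 0% were called at each dose up to 0.3 µg/kg, 0.2% at 1 µg/kg, 0.697% at 3 µg/kg, 1.78% at 10 µg/kg and 6.16% at 30 µg/kg. At these shares, 0 of 10 members differs little from the background. DESeq2 and limma voom also called 0 members at each dose. Without adjustment, 2 of 10 members had a p under 0.05 at 0.03, at 1 and at 30 µg/kg, 1 of 10 at 0.1, 0.3 and 3 µg/kg, and 0 of 10 at 0.01 and 10 µg/kg. From the lowest dose to the highest, 6.35%, 4.64%, 6.37%, 5.19%, 9.80%, 16.04%, 17.8% and 27.02% of all genes had such a p.

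The direction of the small differences was not steady along the series. Against vehicle, 9 of 10 members were lower at 0.03 µg/kg (median of the log2 fold changes -0.30), and 9 of 10 were higher at 1 µg/kg (median 0.23). At 3, 10 and 30 µg/kg 8 of 10 were lower, with medians of -0.20, -0.11 and -0.17. The medians over all genes tested lay between -0.011 and 0.0071 in the 8 comparisons. All 8 comparisons use the same 3 vehicle mice, of which mouse 2 was high for most members. The 95% intervals of single members were wide. At 30 µg/kg the interval of the log2 fold change was -0.96 to 0.38 for Fos, -0.59 to 1.59 for Fosb, -1.64 to -0.043 for Egr1 and -0.31 to 0.21 for Zfp36, so that a 1.5-fold change of Zfp36 lay outside its interval and a 1.5-fold change of Fos or Fosb did not.

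**Figure D2:**
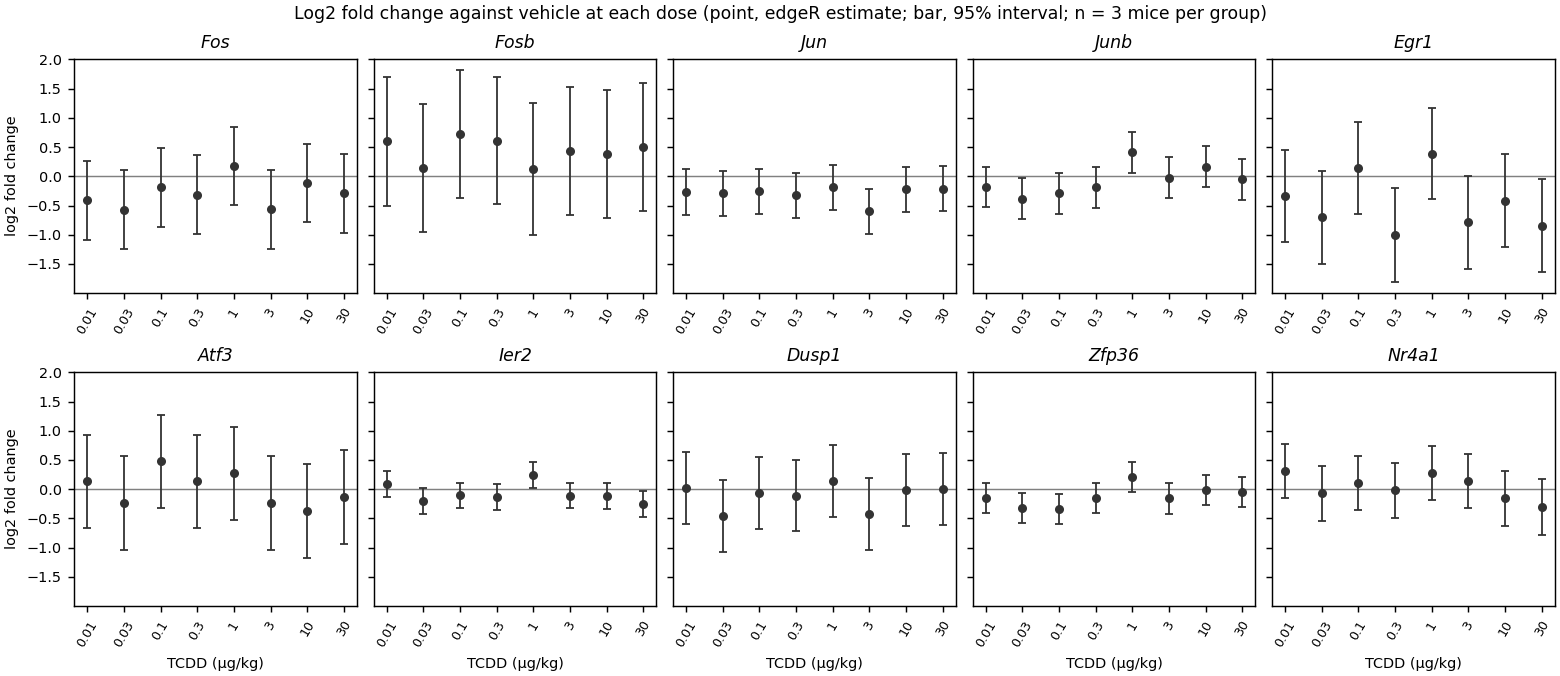
Log2 fold change of each gene against vehicle (vertical axes, shared) at each dose of TCDD, as edgeR estimates with 95% intervals, 3 mice per group. Intervals are narrow for Ier2 and Zfp36 and wide for Fosb and Egr1, and no member passed the threshold at any dose.

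Across the whole series, 0 of 10 members changed with dose rank at an adjusted p under 0.05 (the smallest, for Junb, was 0.179), beside 23.4% of all genes. Without adjustment 0 of 10 had a p under 0.05, beside 35.9% of all genes, and limma voom likewise called 0. The slopes ran from -0.056 for Egr1 to 0.037 for Junb on the log2 scale per dose step. Within the second index set alone, 0 members differed between 10 and 3 µg/kg or between 30 and 3 µg/kg, where 0.0485% and 0.461% of all genes were called and 0 and 1 of 10 members had an unadjusted p under 0.05, beside 4.80% and 10.97% of all genes. The test of any difference among the 9 groups, which like the slope needed an adjusted p under 0.05 with no fold threshold, called 2 of 10 members, Ier2 (adjusted p = 0.0422) and Junb (adjusted p = 0.0445), beside 7.35% of all genes. Zfp36 (adjusted p = 0.0682) and Egr1 (adjusted p = 0.102) followed, and the other 6 had an adjusted p of 0.436 to 0.932. Without adjustment these 4 of 10 members had a p under 0.05, beside 21.7% of all genes. Both calls stood with RLE size factors (adjusted p = 0.0466 for Ier2 and 0.0434 for Junb). With no filter on low counts 3 members were called, with Junb at an adjusted p of 0.00424 and Ier2 not called at 0.0714, and with limma voom 0 were called (0.0524 for Ier2 and 0.0671 for Junb). Without the 0.01 µg/kg group, an alternative chosen after the data were seen, 3 members were called, Ier2 (0.0493) and Junb (0.0231) included. Both calls were lost without the 1 µg/kg group (adjusted p = 0.357 for Ier2 and 0.237 for Junb), also chosen after the data were seen, and fewer than 2 members were called in 20 of the 27 fits that left out 1 mouse. Of these 27 fits Ier2 was called in 6, Junb in 9 and both in 3, which were the fits without vehicle mouse 4, mouse 14 at 0.01 µg/kg and mouse 18 at 0.03 µg/kg.

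The 1 µg/kg group held the highest mean of the 9 for 6 of 10 members, Fos (131 ± 15.7 CPM, SD, n = 3), Junb (140 ± 28.0), Zfp36 (113 ± 20.05), Ier2 (43.9 ± 2.80), Egr1 (51.2 ± 14.3) and Dusp1 (32.0 ± 8.17). The 0.03 µg/kg group held the lowest mean for 3 of 10. At 3 µg/kg, the next dose, Fos was 78.6 ± 10.9 CPM and Egr1 22.6 ± 0.625 CPM (SD, n = 3 each). The mice at 1 µg/kg were placed in both index sets. Clock genes also differed there, with a sum of 830 to 1040 CPM at 1 µg/kg against 527 to 570 CPM in the vehicle group and 915 to 1059 CPM at 3 µg/kg, and their part in the members' levels was not tested.

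Groups that did not overlap with the vehicle mice in CPM were few. From the lowest dose to the highest this held for 0, 1, 1, 1, 1, 2, 0 and 1 of 10 members. Over all genes it held for 11.4%, 13.3%, 12.4%, 12.4%, 16.2%, 24.6%, 25.2% and 29.7%, so that the members stood near or below the background. They were Zfp36 at 0.03, 0.1, 0.3 and 3 µg/kg, Ier2 at 1 and 30 µg/kg and Jun at 3 µg/kg. With 3 mice against 3 the exact two-sided permutation test gave p = 0.1 for each, which is the smallest it can give.

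The spread between mice of the same dose was larger for Fosb, Egr1, Atf3, Fos and Dusp1 than for most other genes. The SD of log2 CPM within groups was 0.74 for Fosb, 0.56 for Egr1, 0.53 for Atf3, 0.45 for Fos, 0.40 for Dusp1, 0.28 for Nr4a1, 0.25 for Jun, 0.23 for Junb, 0.16 for Zfp36 and 0.13 for Ier2. The median was 0.34 over the members and 0.21 over all genes tested, and 8 of 10 members lay above the latter. Of these, Nr4a1, Jun and Junb were near it, at percentiles 61, 57 and 53 of all genes. Because spread falls as level rises, each gene was also set against the trend. The biological coefficient of variation that edgeR estimates was 2.33 times the trend at its level for Egr1 and Atf3 and 2.26 times for Fos and Fosb, which placed all 4 at the 98th percentile of all genes tested. It was 1.77 times the trend for Dusp1 and 1.37 times for Jun, and below the trend for Zfp36 (0.899), Nr4a1 (0.867) and Ier2 (0.659). The median ratio was 1.57 over the members and 0.751 over all genes, and 9 of 10 members lay above the latter.

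Dose group accounted for no more of the variance of the members than of other genes. The share of the variance of log2 CPM that lay between groups had a median of 37.6% over the members and 38.0% over all genes tested, where 30.8% is the mean with no group difference at all. It was 65.8% for Ier2, 59.1% for Junb and 58.7% for Zfp36, and 28.4% for Fos, 26.1% for Atf3, 25.1% for Dusp1 and 12.6% for Fosb. By construction this share rises as the spread within groups falls. Ier2, Zfp36 and Junb, with the smallest spreads within groups, had the largest shares. The members that differed most between mice had shares below the no-difference value, Egr1 (46.0%) excepted.

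**Figure D3:**
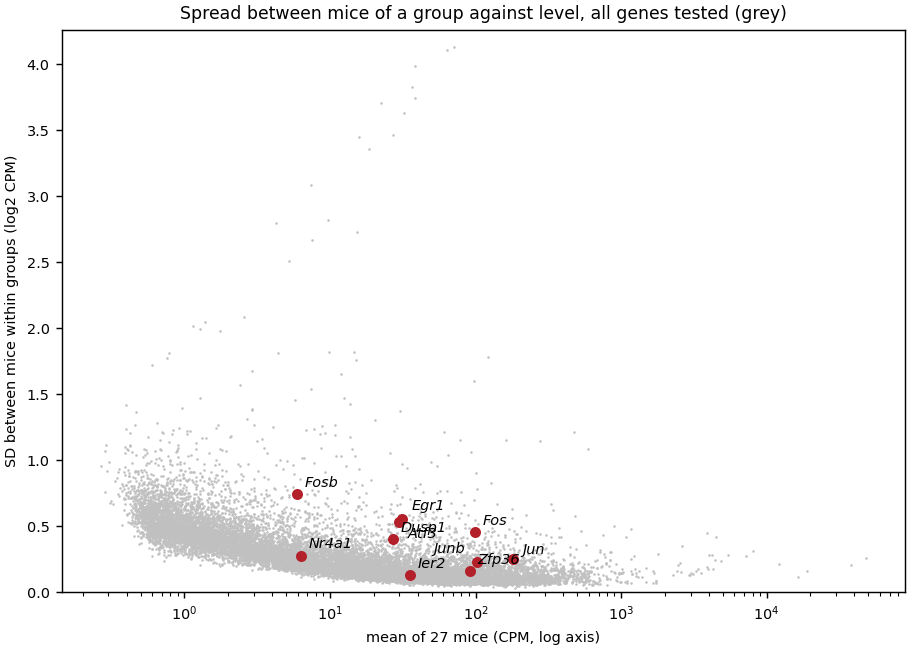
SD of log2 CPM between mice within groups (vertical axis) against the mean of 27 mice in CPM (log axis), with the 10 genes in red and all 16496 genes tested in grey. Fosb, Egr1, Atf3, Fos and Dusp1 lie in the upper part of the cloud of genes at their level, while Ier2 and Nr4a1 do not.

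The deviations were shared between members in some mice. Mouse 9 at 0.01 µg/kg was the highest of its group for 9 of 10 members, with a mean deviation from the group of 0.50 on the log2 scale, and mouse 11 of the same group was the lowest for 8 of 10, with a mean of -0.51. Among the vehicle mice, mouse 2 was above the group mean for 10 of 10 members (mean 0.35) and mouse 4 was the lowest for 8 of 10 (mean -0.29). At 10 µg/kg, mouse 58 was above the group mean for 10 of 10 (mean 0.33) and mouse 57 had a mean of -0.30. The mean log2 CPM of the members ran from 4.67 to 5.68 at 0.01 µg/kg and from 5.10 to 5.16 at 30 µg/kg. The means of the 9 groups lay between 4.98 and 5.49.

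**Figure D4:**
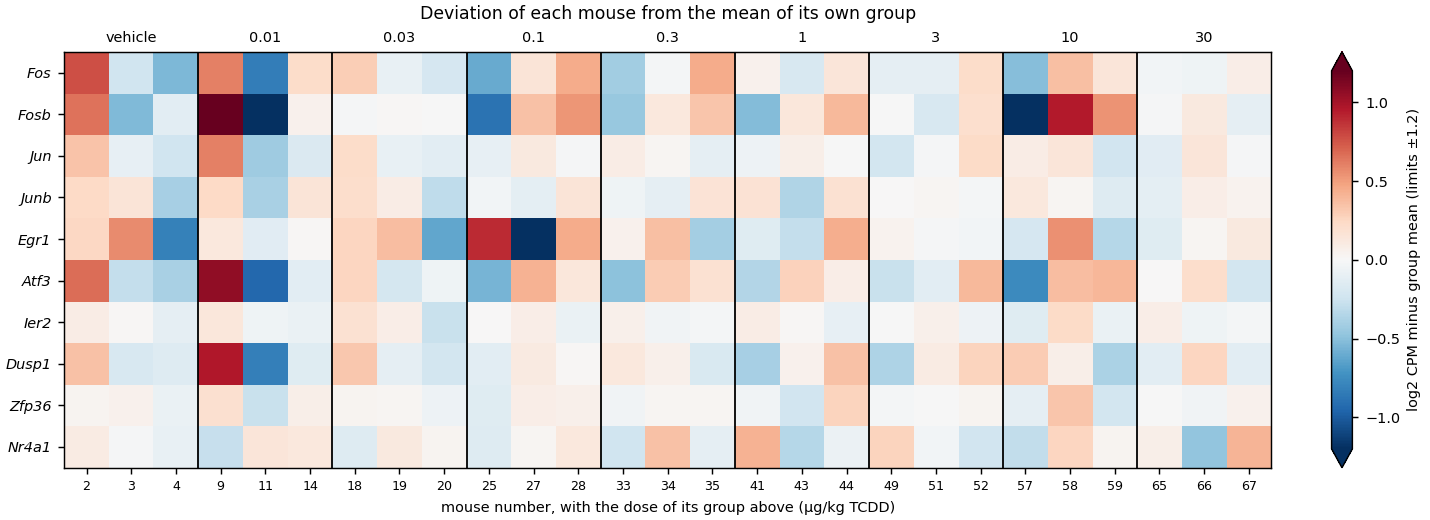
Deviation of each mouse from the mean of its own group on the log2 CPM scale, with the 10 genes in rows and the 27 mice in columns ordered by dose, and colours limited at ±1.2. Mice 2, 9 and 58 are above their groups for nearly all genes, mice 4 and 11 are below for most, and the 3 mice at 30 µg/kg are close together except for Nr4a1.

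Pair by pair over the 27 mice, 41 of the 45 pairs of members had a positive correlation of these deviations, with a median Pearson r of 0.37 (a description, since the points share groups and libraries). The closest were Jun with Dusp1 (r = 0.92), Fosb with Atf3 (0.91), Fos with Atf3 (0.84) and Fos with Fosb (0.84). Egr1 stood apart from them, with r of 0.099 to Fos, 0.0029 to Fosb and -0.039 to Atf3, and its closest member was Junb (0.49). Nr4a1 ran against Dusp1 (-0.52) and Jun (-0.39). These pairs were not separate from each other, since Jun and Atf3 had r = 0.70, Atf3 and Dusp1 0.63, Fos and Jun 0.60, Fosb and Jun 0.53 and Fos and Dusp1 0.50.

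The sequences upstream of the 5 members in the closest pairs, Fos, Fosb, Atf3, Jun and Dusp1, are shown because such genes are classically driven through cyclic AMP response elements (CRE), whose full form is TGACGTCA, and related ATF and AP-1 sites. The 250 bases before the RefSeq start (build GRCm38.p6) were searched on both strands in 8 of 10 members (not Egr1 and Ier2). The motifs were chosen with sequences and results of these data known. The letters TGACG were in 6 of 8 members (Fos, Fosb, Junb, Atf3, Nr4a1 and Dusp1) and in 17.8% of 32851 promoters. TGACNTCA was in 2 of 8 (Jun and Dusp1) and in 7.49%, and in Dusp1 it contains the shorter motif. The AP-1 site, TGANTCA, was in 0 of 8 and in 6.75%. These matches describe letters in a window, not binding. Below, up to 200 bases before the start are printed 5′ to 3′ on the strand of the gene, without bases annotated as exon except for Atf3, of which the last 30 bases are given, and capitals mark TGACG or TGACNTCA on either strand. Counted back from the start, which follows position -1, they begin at -129 and -66 in Fos, -60 in Fosb, -7 in Atf3, -45 in Jun, and -191 and -143 in Dusp1.
Fos (chr12:85473690-85473889, plus strand): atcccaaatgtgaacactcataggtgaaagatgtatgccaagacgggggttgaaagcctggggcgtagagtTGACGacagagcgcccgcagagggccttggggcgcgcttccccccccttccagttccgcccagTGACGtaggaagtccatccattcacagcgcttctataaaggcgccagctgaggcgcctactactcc
Fosb (chr7:19310052-19310245, minus strand): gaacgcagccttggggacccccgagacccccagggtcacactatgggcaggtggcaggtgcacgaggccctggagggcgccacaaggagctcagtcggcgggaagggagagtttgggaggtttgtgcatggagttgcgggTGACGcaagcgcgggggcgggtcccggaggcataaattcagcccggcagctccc
Atf3 (chr1:191183334-191183363, minus strand): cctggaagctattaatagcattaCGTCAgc
Jun (chr4:95052223-95052422, minus strand): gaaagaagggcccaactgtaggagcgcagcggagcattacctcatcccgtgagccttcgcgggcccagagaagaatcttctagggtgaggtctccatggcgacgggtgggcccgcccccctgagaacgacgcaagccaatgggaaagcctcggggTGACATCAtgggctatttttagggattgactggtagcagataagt
Dusp1 (chr17:26508520-26508672, minus strand): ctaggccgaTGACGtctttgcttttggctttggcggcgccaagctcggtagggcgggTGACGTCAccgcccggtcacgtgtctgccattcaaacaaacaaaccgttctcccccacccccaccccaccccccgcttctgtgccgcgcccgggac
Dusp1 holds a further TGACG apart from its full CRE. Nr4a1, whose deviations had r = -0.13 with those of Atf3, holds TGACG as Atf3 does. Of the other motifs, the AhR core GCGTG was in 5 of 8 members and in 28.2% of all promoters. The EGR site GCGNGGGCG was in 3 of 8 and in 4.7%, and the CArG box of serum response factor in 1 of 8 (Zfp36) and in 1.47%.

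Other measures were set beside the mean deviation of the 10 members over the 27 mice, as descriptions. The mean of 47 other immediate early genes deviated in the same mice (r = 0.86, and 0.78 without mice 9 and 11, the 2 farthest from 0). The mean of the 11 epithelial markers did so too (r = 0.72, and 0.443 without those mice), with deviations of 0.20 in mouse 9 and -0.18 in mouse 11. Its genes were split. Krt20 (0.74), Krt8 (0.65), Krt19 (0.61) and Vil1 (0.60) had the highest r. Slc26a3 (0.41), Cdh1 (0.34), Krt18 (0.33) and Epcam (0.24) had a lower r. Car1 (0.069), Cdx2 (-0.029) and Muc2 (-0.27) did not deviate with the members. Without mice 9 and 11, Krt18 and Epcam each had r = -0.12. The 8 feedback genes of the ERK pathway had r = 0.42 (0.428 without those mice) and the 22 upstream factors and kinases 0.389 (0.251). The 13 heat shock genes (0.17), the 10 glucocorticoid response genes (0.188), the 14 clock genes (0.0696) and the 5 AhR targets (-0.149) had little relation to it. So had the 13 genes of muscle and stroma (-0.000101), the total count (0.0518) and the mitochondrial share (-0.0552). The share of reads on no feature had r = -0.119, and 0.329 without mice 9 and 11, and the share of reads not unique had r = -0.0856, and -0.355 without them. The 7 T cell genes had r = -0.342, and -0.461 without mice 9 and 11. The part of the epithelial markers in the members' spread was not tested, and mouse 9 also had more muscle and stroma (a deviation of 0.71), a lower share of reads on no feature (29.1% against 31.7% in mouse 11) and a similar mitochondrial share (3.61% against 3.74%). The 5 adipocyte genes had r = -0.0634. In the 0.01 µg/kg group they were higher than in vehicle (median log2 fold change 2.48). There 5 of 5 had an unadjusted p under 0.05, beside 6.35% of all genes, and 0 were called.

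**Figure D5:**
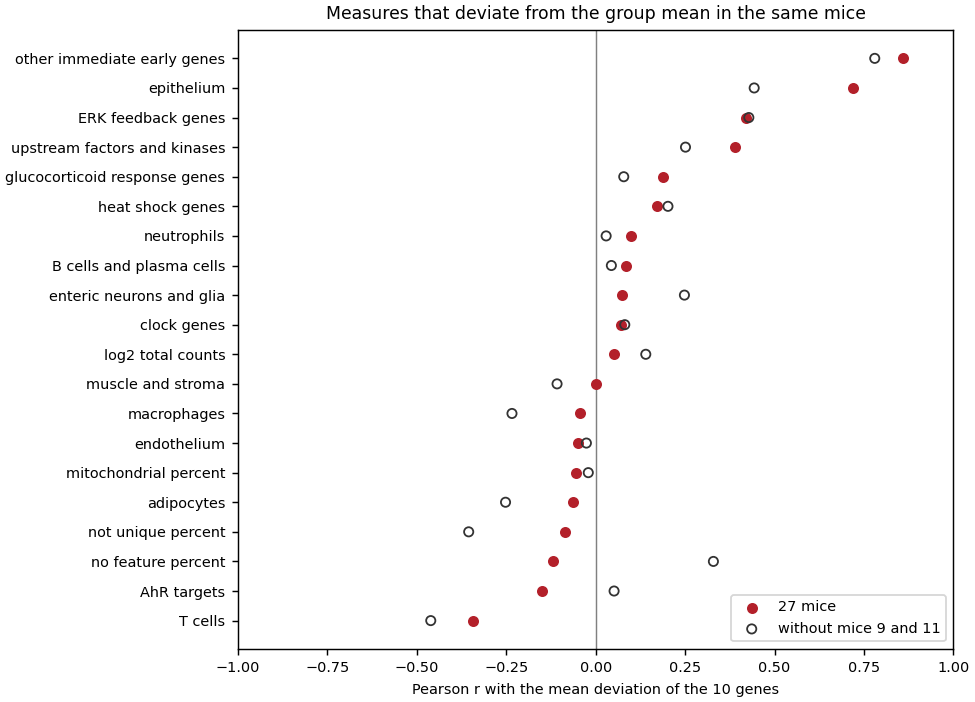
Pearson r over 27 mice between the mean deviation of the 10 genes from their group means and the deviation of each gene list or library measure, with red points for all mice and open circles without mice 9 and 11. The means of other immediate early genes (0.86) and of epithelial markers (0.72) lie far to the right. Single epithelial markers, not drawn, ran from -0.27 (Muc2) to 0.74 (Krt20). Heat shock genes, clock genes, muscle and stroma and library measures lie between -0.119 and 0.17 over all mice. Without mice 9 and 11 the shares of reads on no feature (0.329) and not unique (-0.355) lie farther out.

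Among the single genes whose deviations were most like the mean of the members, of 16486 ranked, were Clca4a (r = 0.82), Osgin1 (0.82), Errfi1 (0.80), Pvr (0.80), 2010109I03Rik (0.78), Pmp22 (0.78), Abl2 (0.76) and Neat1 (0.76), each over 27 mice. Without mice 9 and 11 these values were 0.58 to 0.79. The median r of all genes was -0.017 and 34 genes exceeded 0.7. Errfi1, a feedback inhibitor of the epidermal growth factor receptor that belongs to the other immediate early genes, was 125, 106 and 109 CPM in vehicle mice 2, 3 and 4 and 163, 89.5 and 116 CPM in mice 9, 11 and 14. Clca4a was 649, 161 and 285 CPM in mice 9, 11 and 14 and 574, 312 and 341 CPM in the vehicle mice, so that it was highest in the same mouse as Fos in both groups. Krt20, a keratin of differentiated surface cells chosen for mention after its values were seen (r = 0.74), was 1169, 630 and 760 CPM in mice 9, 11 and 14. It had the highest r of the epithelial markers, and the others ran from -0.27 for Muc2 to 0.65 for Krt8.

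Of 51 other immediate early genes, 47 were tested, and Egr2, Egr3, Dusp2 and Npas4 had too few counts. At 1 µg/kg and below edgeR and limma voom called 0 of the 47, of which 6 at 0.01, 8 at 0.03, 8 at 0.1, 8 at 0.3 and 13 at 1 µg/kg had an unadjusted p under 0.05, beside 6.35%, 4.64%, 6.37%, 5.19% and 9.80% of all genes. At 3 µg/kg 1 was called higher and 3 lower, beside 0.303% and 0.394% of all genes. At 10 µg/kg 2 were higher and 5 lower, beside 0.812% and 0.97%, and at 30 µg/kg 3 were higher and 6 lower, beside 2.95% and 3.21%. The limma voom counts in both directions were 3, 5 and 6 at these doses. Without adjustment 20, 18 and 15 of the 47 had a p under 0.05, beside 16.04%, 17.8% and 27.02% of all genes. The median log2 fold change of the 47 at 30 µg/kg was -0.014. With dose rank 6 rose and 7 fell, beside 11.8% and 11.6% of all genes.

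Ier5, a relative of Ier2, fell from 67.1 ± 10.1 CPM in the vehicle group to 35.4 ± 7.97 CPM at 30 µg/kg (SD, n = 3 each; log2 fold change -0.93, SE 0.22, adjusted p = 0.0107). Nr4a2, a relative of Nr4a1, fell from 5.201 ± 0.249 to 1.82 ± 0.877 CPM (log2 fold change -1.51, SE 0.31, adjusted p = 0.00307). Cebpd, a C/EBP transcription factor, fell from 30.1 ± 9.97 to 10.6 ± 0.5001 CPM (-1.50, SE 0.27, adjusted p = 0.00101), and Nfkbiz, a nuclear IκB protein, from 144 ± 36.4 to 81.2 ± 11.8 CPM (-0.82, SE 0.16, adjusted p = 0.0025). Ier3, a stress-induced survival gene, rose from 4.15 ± 0.674 to 10.6 ± 0.711 CPM (1.35, SE 0.27, adjusted p = 0.00244), and Plk2, a polo-like kinase, from 18.8 ± 3.84 to 33.7 ± 2.55 CPM (0.84, SE 0.15, adjusted p = 0.000878). Csrnp1 passed at 3 µg/kg (1.45, SE 0.37, adjusted p = 0.0474) and 10 µg/kg, and Mcl1, an inhibitor of apoptosis, in the slope (0.067 per dose step, SE 0.012, adjusted p = 0.000131). Of these 8 genes, 0 were called between 30 and 3 µg/kg and 0 between 0.3 µg/kg and vehicle, comparisons that lie within 1 index set, and 1 of them, Plk2 (log2 fold change 0.99, adjusted p = 0.0346), was called at 30 µg/kg once index set was a covariate. The other estimates then had larger SEs, with log2 fold changes of -1.17 (SE 0.42) for Ier5, 1.29 (SE 0.49) for Ier3, -1.40 (SE 0.59) for Nr4a2, -1.10 (SE 0.49) for Cebpd, -0.49 (SE 0.29) for Nfkbiz, 1.17 (SE 0.63) for Csrnp1 and 0.60 (SE 0.24) for Mcl1.

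The lists below stand beside 6.16% of all genes called at 30 µg/kg, 2.95% higher and 3.21% lower, and 27.02% with an unadjusted p under 0.05. Of the pathway that acts on the members, 0 of 22 upstream factors and kinases were called at 30 µg/kg by edgeR or by limma voom (median log2 fold change -0.031), and 4 of them had an unadjusted p under 0.05. With dose rank 4 of the 22 rose (Map2k1, Mapk3, Rps6ka1 and Mrtfa) and 1 fell (Braf), and Mapk3 was also called in the test of any difference. Of 8 ERK feedback genes, 2 were called higher, Etv5 (0.96, SE 0.21, adjusted p = 0.0062) and Spry4 (0.93, SE 0.28, adjusted p = 0.0325), and 0 lower, while with dose rank 3 rose and 2, Etv4 and Spred1, fell. Of 13 heat shock genes, 2 were called higher, Hspb1 (2.49, SE 0.68, adjusted p = 0.0218) and Hspa8 (0.62, SE 0.10, adjusted p = 0.000264). Of 10 glucocorticoid response genes, 4 were called higher, Fkbp5, Tsc22d3, Zbtb16 and Per1, of which Per1 is also a clock gene, and 1 lower, Sult1a1. Among the markers, 0 of 11 epithelial genes, 1 of 13 of muscle and stroma, 4 of 7 tested of endothelium, 1 of 9 of macrophages, 2 of 5 of adipocytes and 2 of 3 tested of enteric neurons and glia were called at 30 µg/kg, all of them higher. Of the epithelial genes 3 had an unadjusted p under 0.05 at 30 µg/kg. At 30 µg/kg limma voom called 0 of the macrophage genes and 1 of the adipocyte genes. With dose rank, where 11.8% of all genes rose and 11.6% fell, 5 of the 11 epithelial genes, Krt8, Krt19, Krt20, Vil1 and Epcam, rose (0.027 to 0.062 on the log2 scale per dose step) and 0 fell, and Vil1 was also called in the test of any difference. With dose rank 5 of 13 genes of muscle and stroma, 4 of 7 of endothelium, 2 of 9 of macrophages, 2 of 7 of B and plasma cells and 2 of 3 of enteric neurons and glia rose, and 0 of the T cell, neutrophil and adipocyte genes were called. Of the 7 T cell genes, the 7 B and plasma cell genes and the 3 neutrophil genes tested, 0 were called at 30 µg/kg, with 1, 2 and 0 at an unadjusted p under 0.05. Of the 6 neutrophil genes listed, S100a8 and S100a9 had at most 2 and 1 counts in a mouse, Mpo at most 10, Csf3r 2 to 17, Cxcr2 23 to 60 and Ly6g 10 to 270. The summed level of the 10 members was 537 to 854 CPM in the vehicle group and 567 to 626 CPM at 30 µg/kg.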

How the data were processed

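RNA of each mouse was sequenced and the authors deposited 1 table of whole-number read counts per gene and mouse, not normalized. Per the labels' processing notes, FastQC 0.11.3, Trimmomatic 0.33, TopHat2 2.1.0, SAMtools 1.2.0, HTSeq 0.6.1 and DESeq were used with GRCm38. The annotation release and the use of strand are not given in the sources used here. Rows that name no gene were left out. They were 29.1 to 33.3% (no feature), 30.7 to 37.1% (not unique) and 0.392 to 0.607% (ambiguous) of each table, so that shared sequence is undercounted.

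Genes were kept by filterByExpr (minimum count 10), scaled by TMM factors and tested with edgeR 4.0.16 in R 4.3.3 (glmQLFit on all 9 groups, glmQLFTest for each dose, dose rank and any difference), with Benjamini-Hochberg adjustment over all genes tested. Each SE is the log2 fold change divided by the root of its F statistic. Log2 CPM used a prior count of 2. Gene positions are from GENCODE M21 on GRCm38. The alternatives, 5 of which were added after the data were seen, included DESeq2 1.42.0, limma 3.58.1 voom, RLE size factors, no filter, a fit of 2 groups, log10 dose, a term for the index set and each mouse left out. Steps were tested on simulated data. P-values weigh a difference or slope against the residual spread between mice, and that spread itself was not tested.

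The members and lists were chosen with earlier results of these data known. Named were the members, up to 8 other immediate early genes called at a dose or in the slope (smallest p first) and the 10 genes most like the members' mean deviation, of which 2 are not reported here.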

Additional observations from a re-analysis of the deposited data

How the results depend on the processing

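At each dose the count of members called was 0 under every alternative that was run, as were the counts for the slope and for 10 and 30 against 3 µg/kg. The median SD within groups over the members was 0.284 to 0.348 with each mouse left out and 0.282 without the 0.01 µg/kg group. The test of any difference called 0 to 2 members with each mouse left out, 2 with RLE size factors, 3 with no filter and 0 with limma voom. In alternatives chosen after the data were seen it called 3 without the 0.01 µg/kg group, 0 without the 1 µg/kg group, 0 over vehicle to 0.3 µg/kg and 0 over 3, 10 and 30 µg/kg. Signs changed for log2 fold changes and slopes that were not called. With a term for the index set the log2 fold change at 30 µg/kg was -0.32 for Fosb, 0.18 for Junb, -0.61 for Dusp1 and 0.32 for Nr4a1, and the slope per dose step was -0.011 for Fos, -0.036 for Dusp1 and -0.022 for Zfp36. With each mouse left out, the log2 fold change at 30 µg/kg ran from -0.53 to 0.21 for Fos, from -0.23 to 0.075 for Junb, from -0.32 to 0.30 for Atf3 and from -0.13 to 0.21 for Dusp1, and, with no change of sign, from -1.15 to -0.55 for Egr1, from -0.52 to -0.096 for Nr4a1, from 0.27 to 0.92 for Fosb and from -0.33 to -0.013 for Jun, and the slope from -0.012 to 0.037 for Fos, from -0.00019 to 0.056 for Fosb and from -0.0077 to 0.027 for Dusp1. Alternatives other than leaving out 1 mouse gave slopes of 0.0026 to 0.041 for Junb and of -0.12 to -0.048 for Egr1. At 30 µg/kg they gave log2 fold changes of -0.25 to -0.12 for Ier2 and of -0.67 to -0.06 for Atf3. The signs of Fos and Atf3 at 30 µg/kg turned without vehicle mouse 2. The cause was not tested. No paired analysis was possible because the labels number every mouse separately. With 3 mice per group, a 1.5-fold change at 30 µg/kg lay within the 95% intervals of Fos, Fosb, Egr1, Atf3, Dusp1, Jun and Nr4a1, in at least 1 direction.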
